A study of Mus musculus with 6 samples.

Results

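The miR-15/16 family is a group of microRNAs (miRNAs, short RNAs that lower the output of target transcripts) that share a seed, the stretch of bases at the 5′ end that pairs with the target. Its members here were mmu-miR-15a, mmu-miR-15b, mmu-miR-16, mmu-miR-195, mmu-miR-497, mmu-miR-322 and mmu-miR-503. They were taken by name from the array annotation, with the version tag removed, and made up 7 of the 611 mouse miRNAs measured. The X-linked pair mmu-miR-322 and mmu-miR-503 is set here against the miR-15/16 pairs, in embryonic stem (ES) cell samples labelled as without or with Activin.

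All 6 samples came from EB3, a mouse ES cell line of 129/Ola origin. The 3 control samples are labelled as EB3 without Activin and the 3 Activin samples as EB3 differentiated with Activin, a TGF-beta ligand used to direct ES cells towards mesoderm and endoderm. The culture text describes 10 ng/ml Activin during 3 days as embryoid bodies and 15 days attached to gelatin, 18 days in all, and it is the same for every sample. Whether the control cells were undifferentiated or were differentiated without Activin is therefore not stated in the sources used here, and no label says that the samples of a group were separate cultures. A p-value here thus refers to the spread among the samples at hand, and that spread may be only technical. Each sample was hybridised to 1 single-colour array, and all 6 arrays were on 1 slide.

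Members of this family are expressed in many tissues and are best known as brakes on the cell cycle, with cyclin D1, Cdk6, Wee1 and the survival factor Bcl2 among their described targets. In Xenopus embryos miR-15 and miR-16 repress Acvr2a, a type II receptor for Activin and Nodal. The genes lie in pairs: Mir15a with Mir16-1, Mir15b with Mir16-2, Mir497 with Mir195a, and Mir322 with Mir503 on the X chromosome. Mature miR-16 comes from 2 of these loci, so its level cannot be assigned to either. The X-linked pair is known to rise during muscle differentiation, where Cdc25a, a phosphatase that drives the cell cycle, is a described target.

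The mature sequences show what defines the family and where mmu-miR-503 departs from it. All 7 members matched an entry in the RefSeq miRNA table of assembly GRCm38.p6, mmu-miR-195 and mmu-miR-497 under the names miR-195a-5p and miR-497a-5p. They are written 5′ to 3′ with the seed, bases 2 to 8, in capitals, starting with the 6 members that share the seed AGCAGCA and ending with mmu-miR-503.

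mmu-miR-15a: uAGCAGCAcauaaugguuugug

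mmu-miR-15b: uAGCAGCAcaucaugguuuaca

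mmu-miR-16: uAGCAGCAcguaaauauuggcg

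mmu-miR-195: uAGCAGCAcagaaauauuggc

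mmu-miR-497: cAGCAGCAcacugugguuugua

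mmu-miR-322: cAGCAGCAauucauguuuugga

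mmu-miR-503: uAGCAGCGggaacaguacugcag

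The seed AGCAGCA occurs in 10 of the 1679 mature mouse miRNAs of the table (0.596%), and the seed of mmu-miR-503, AGCAGCG, in 1. Members with the same seed differ in the rest of the sequence, which is the part that lets an array probe tell them apart. Compared base by base from the end of the seed, mmu-miR-195 is the nearest to mmu-miR-16, with 11 of 13 bases the same. The other counts of shared bases are 8 of 14 for mmu-miR-15a, 6 of 14 for mmu-miR-15b, 5 of 14 for mmu-miR-322 and for mmu-miR-503, and 4 of 14 for mmu-miR-497. The GC content is 56.5% in mmu-miR-503, 50% in mmu-miR-497 and between 40.9% and 45.5% in the other members.

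On GRCm38.p6, mature mmu-miR-322 lies at chrX:53054306-53054327 and mmu-miR-503 at chrX:53054027-53054049, both on the minus strand with 256 bases between them. Mature mmu-miR-15a lies at chr14:61632075-61632096 and the copy of mmu-miR-16 beside it at chr14:61631936-61631957, both on the minus strand. Mature mmu-miR-15b lies at chr3:69009775-69009796 and the other copy of mmu-miR-16 at chr3:69009918-69009939, both on the plus strand. Mature mmu-miR-497 lies at chr11:70234730-70234751 and mmu-miR-195 at chr11:70235062-70235082, also on the plus strand. The array design names the older build mm9, and no coordinate of the array was used.

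Every member was measured by 2 probes with 10 spots each on every array. Detection of a probe on an array required the scanner software's flag for signal well above background on more than 0.5 of its unflagged spots, and detection of a miRNA required 1 such probe. The intensity given for a miRNA is the mean of background-subtracted spot intensities over its probes. Probes bind with different strength, so the level of one miRNA is not set against that of another.

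Of the 7 members, 5 were detected on at least 1 array and 2, mmu-miR-15b and mmu-miR-322, on all 6. Over all 611 mouse miRNAs, 130 (21.3%) were detected on at least 1 array and 53 (8.67%) on all 6. mmu-miR-15a was detected on the 3 control arrays and on 2 of the 3 Activin arrays. mmu-miR-16 and mmu-miR-503 were each detected on 2 arrays of each group. mmu-miR-195 and mmu-miR-497, the pair on chromosome 11, were detected on none.

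Arrays control 1 and activin 2 were dimmer than the others, and every missing detection of the 5 detected members fell on these 2 arrays. Each array was scaled by the 75th percentile of the 59 probes that all 6 arrays detected. This scaling value was 249 and 177 intensity units on these 2 and between 427 and 616 on the other 4. They detected 80 and 54 mouse miRNAs, against 110 to 119 on the other 4. The coefficient of variation between repeated spots was 17.6% and 15.8% on them and between 6.88% and 9.59% on the others. Because 1 dim array lies in each group, results are also given for the 4 brighter arrays alone.

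mmu-miR-15a, made from the chromosome 14 pair, had intensities of 35.5, 126 and 117 on control arrays 1 to 3 and of 143, 46.0 and 133 on activin arrays 1 to 3. The dim arrays gave the lowest value of each group. After scaling, log2 values were -2.81, -2.29 and -1.87 for control and -2.0, -1.95 and -2.06 for Activin. The Activin values thus lay close together and within the control range, and the array on which this miRNA was not detected, activin 2, was not low after scaling. There, 4 of the 10 spots of each probe were well above background.

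mmu-miR-15b, made from the chromosome 3 pair, had intensities of 83.9, 319 and 344 for control and of 486, 94.3 and 418 for Activin. The scaled log2 values were -1.57, -0.95 and -0.31 for control and -0.23, -0.91 and -0.41 for Activin. Control 1 was the lowest of the 6 arrays, and the groups overlapped, since control 3 lay above activin 2 and activin 3.

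mmu-miR-16, which both of these pairs encode, was dim, with intensities of 9.31, 33.0 and 26.2 for control and of 43.7, 4.08 and 32.2 for Activin. The scaled log2 values were -4.74, -4.22 and -4.03 for control and -3.70 and -4.11 for activin 1 and 3. Activin 2 lay at the floor of -4.94 below which scaled values were not resolved. Of its probes, A_54_P1302 was detected on 4 arrays and A_54_P1301 on none. It was detected on all arrays of neither group, so it was not tested, and its group means of -4.33 ± 0.37 and -4.25 ± 0.63 (SD, n = 3 each) differed by 0.08.

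mmu-miR-195 and mmu-miR-497 stayed close to background. The intensities of mmu-miR-195 lay between 1.15 and 5.74 over the 6 arrays, and its scaled values were at the floor on each. Those of mmu-miR-497 lay between 4.17 and 13.4, and it was above the floor only on activin 2, at -4.85, where it was not detected. For mmu-miR-497 the scanner software's own call per miRNA was positive on control 2 and activin 1, where no spot was marked well above background. Neither miRNA was tested, and at this signal over background a difference between the groups was not measurable.

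mmu-miR-322, the member of the X-linked pair whose 2 probes were both detected, had intensities of 55.4, 339 and 439 for control and of 611, 94.4 and 436 for Activin. The scaled log2 values were -2.17, -0.86 and 0.04 for control and 0.10, -0.91 and -0.35 for Activin. Control 1 stood far below the other arrays. Control 3 and activin 1 lay within 0.1 of each other at the top, so the groups overlapped.

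mmu-miR-503 had intensities of 2.59, 33.1 and 41.3 for control and of 52.4, 5.47 and 29.3 for Activin. The scaled log2 values were -4.22 and -3.37 for control 2 and 3 and -3.44 and -4.24 for activin 1 and 3, and both dim arrays were at the floor. Each group thus held 1 higher and 1 lower detected value, with almost the same levels in both. It was not tested, and its group means of -4.18 ± 0.78 and -4.21 ± 0.75 (SD, n = 3 each) differed by -0.03.

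**Figure D1:**
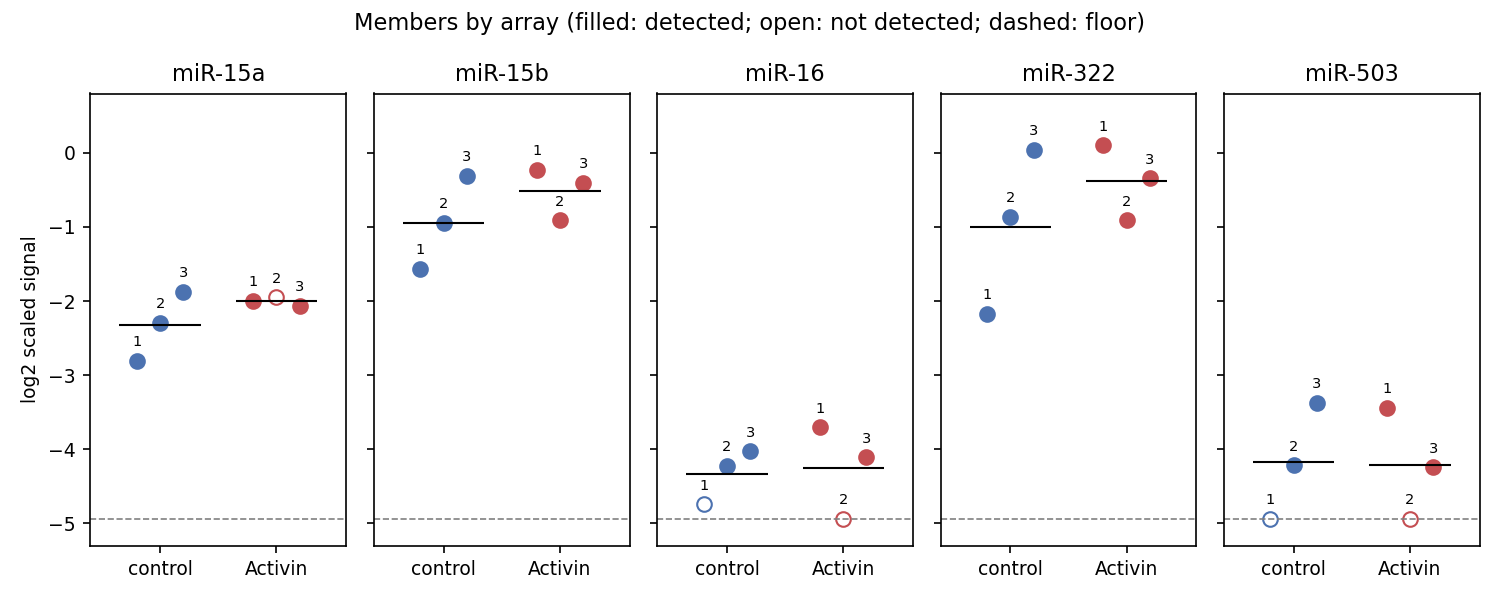
Log2 scaled signal (vertical axis) of the 5 detected members on the 3 control and 3 Activin arrays, 1 point per array with its replicate number, group means as bars, filled points where the miRNA was detected, and the floor of -4.94 dashed. For mmu-miR-15b, mmu-miR-16, mmu-miR-322 and mmu-miR-503, control 1 and activin 2 are the lowest points of their groups, and the groups overlap in each panel.

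Where both probes of a miRNA were detected, on 4 or more arrays each, they gave the same direction. They read the same RNA on the same arrays, so they are not independent. The brighter and dimmer probes changed by 0.32 and 0.33 (log2, Activin minus control) for mmu-miR-15a, by 0.42 and 0.49 for mmu-miR-15b and by 0.62 and 0.59 for mmu-miR-322. These values use all 6 arrays, although the dimmer probe was detected on only 4 for mmu-miR-15b and on 5 for mmu-miR-322. For mmu-miR-503 only probe A_54_P2843 was detected, on 4 arrays, and for mmu-miR-16 only A_54_P1302. With the floor used for the mean of both probes, -4.94, the detected probe alone gave a group difference of 0.53 for mmu-miR-503 and of -0.16 for mmu-miR-16. When the brightest probe was taken for every miRNA, the floor became -3.79 and the differences were 0.14 and 0.16, in the same order. The mean of both probes gave -0.03 and 0.08. The size of these untested differences, and for both members the sign, thus changed with how probes were combined and where the floor lay, and no direction is read from them.

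Outlier flags of the scanner software removed 29 of the 840 member spots on the 6 arrays. The removal mattered most for 1 value. Probe A_54_P4382 of mmu-miR-15a on control 1 had 2 flagged spots of 10, with an intensity of up to 539, and its mean was 37.5 without and 101 with them. How far the group difference of mmu-miR-15a depends on removing these spots was not tested.

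**Figure D2:**
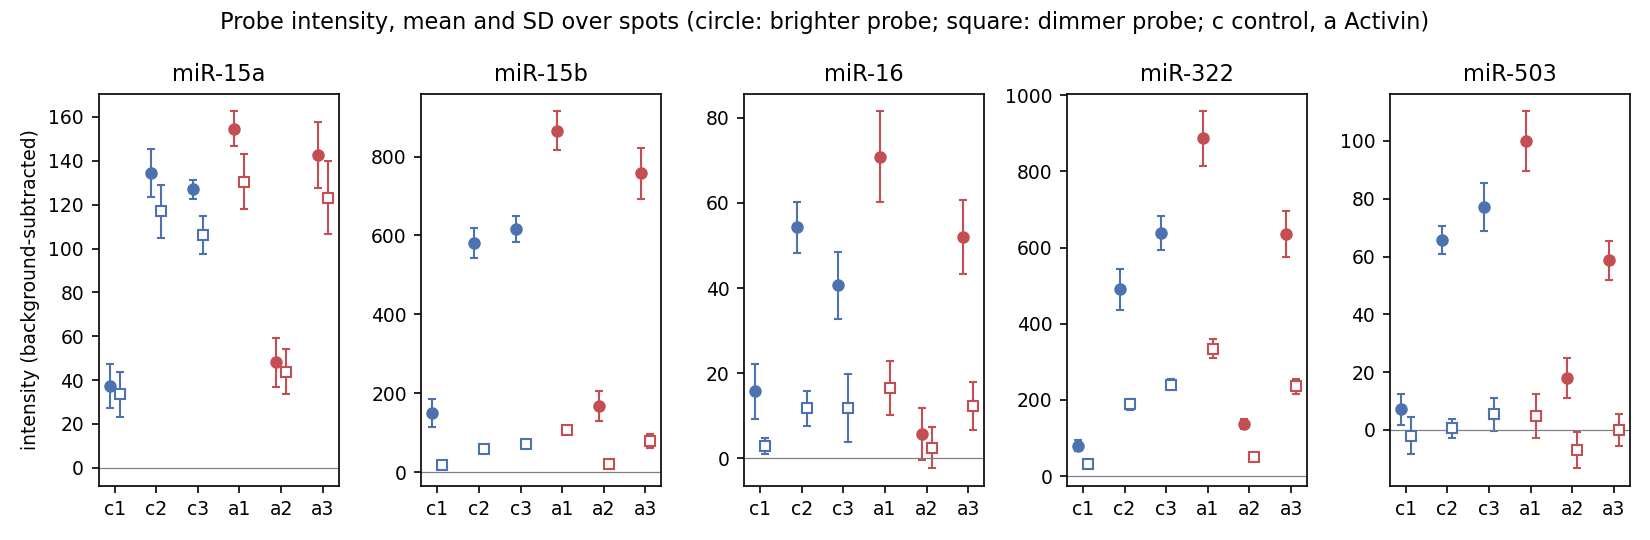
Background-subtracted intensity (vertical axis, linear, a separate scale per panel) of the brighter probe (circles) and the dimmer probe (open squares) of each detected member on control arrays 1 to 3 (c1 to c3) and activin arrays 1 to 3 (a1 to a3). Points are means and bars SDs over unflagged spots of 1 array, which are technical repeats. On every panel c1 and a2 are the lowest arrays of the brighter probe, and the dimmer probes of mmu-miR-16 and mmu-miR-503 stay near background.

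Activin and control were compared with limma over 79 mouse miRNAs, those that every array of 1 group or of both detected. They included mmu-miR-15a, mmu-miR-15b and mmu-miR-322. mmu-miR-15a entered through the control group, and the other 2 through both groups. After Benjamini-Hochberg adjustment, none of the 3 tested members passed 0.05, where 1 of all 79 miRNAs (1.27%) did. None of the 3 had groups that did not overlap, where 14 of the 79 (17.7%) had. All 3 fitted differences were above 0, with a median of 0.43. Over all 79 the median was 0.17, with 50 above 0 and 29 below.

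mmu-miR-322 had the largest fitted difference of the members. Its group means were -1.0 ± 1.11 and -0.38 ± 0.51 (log2, SD, n = 3 each), and the fitted difference was 0.61 (SE 0.31, 95% interval 0.00107 to 1.22), a ratio of 1.53, with a limma adjusted p of 0.405. Its unadjusted limma p of 0.0496 was under 0.05, as it was for 9 of the 79 miRNAs (11.4%). The SD within the control group was larger than the difference. The SE and interval rest on variances pooled almost fully over the 79 miRNAs. In the fit without the detection filter, which pooled variances little, the same difference had an SE of 0.70. Without control 1 the difference was 0.03 (limma adjusted p = 1), and without control 3 it was 1.13 (limma adjusted p = 0.138).

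mmu-miR-15b had group means of -0.94 ± 0.63 and -0.51 ± 0.35 (SD, n = 3 each). Its fitted difference was 0.43 (SE 0.30, 95% interval -0.16 to 1.02), with a limma adjusted p of 0.529. mmu-miR-15a had group means of -2.32 ± 0.47 and -2.0 ± 0.06 (SD, n = 3 each). Its fitted difference was 0.32 (SE 0.30, 95% interval -0.26 to 0.90), with a limma adjusted p of 0.614. The 3 intervals overlap over most of their length, and each reaches from close to or below 0 to about a doubling. Taken against the median of all 79 miRNAs, the differences were 0.45 for mmu-miR-322, 0.26 for mmu-miR-15b and 0.16 for mmu-miR-15a.

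**Figure D3:**
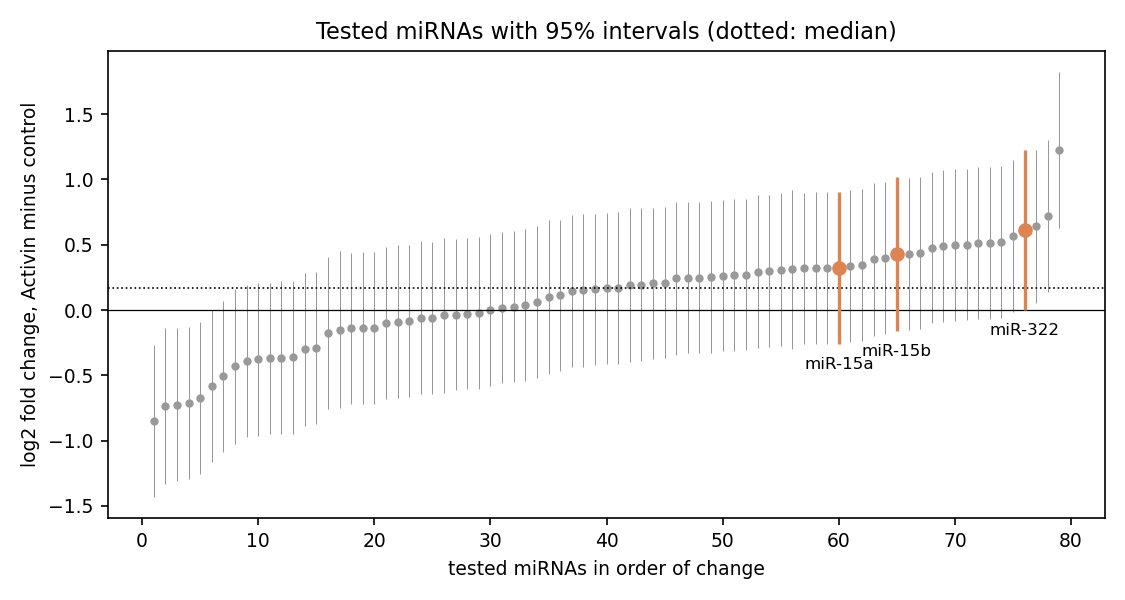
Fitted log2 difference, Activin minus control (vertical axis), of the 79 tested miRNAs in order of the difference (horizontal axis), with 95% limma intervals. The intervals rest on variances pooled almost fully over the 79 miRNAs. The dotted line is the median of 0.17. The 3 tested members, in orange, lie above it, and the intervals of mmu-miR-15a and mmu-miR-15b include 0 while that of mmu-miR-322 starts at 0.00107.

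On the 4 brighter arrays, with 2 per group, 115 miRNAs passed the same filter, and all 5 detected members entered the fit. None of these 115 passed the adjusted threshold, and 8 had an unadjusted limma p under 0.05. The differences were 0.34 (SE 0.16, limma adjusted p = 0.433) for mmu-miR-15b, 0.31 (SE 0.23, limma adjusted p = 0.487) for mmu-miR-322 and 0.25 (SE 0.14, limma adjusted p = 0.433) for mmu-miR-16. They were 0.08 (limma adjusted p = 0.833) for mmu-miR-15a and -0.02 (SE 0.27, limma adjusted p = 0.980) for mmu-miR-503. With both dim arrays left out, the difference of mmu-miR-322 was about the size of that of mmu-miR-15b.

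The contrast of the X-linked pair with the miR-15/16 pairs was read within each array, where the scaling of the array cancels. Of the 2 members detected on all 6 arrays, one belongs to each side, mmu-miR-322 and mmu-miR-15b. The log2 value of mmu-miR-322 minus that of mmu-miR-15b was -0.60, 0.09 and 0.35 for control 1 to 3 and 0.33, 0.00184 and 0.06 for activin 1 to 3. The Activin values all lay inside the control range. The means were -0.05 ± 0.49 and 0.13 ± 0.17 (SD, n = 3 each), a difference of 0.18 that was smaller than the control SD. Control 1 was the farthest from 0 and the only array below it, and without control 1 the group difference was -0.09.

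The other side of the contrast, mmu-miR-503 minus mmu-miR-16, could be formed on the 4 brighter arrays. It was 0.00340 and 0.66 on control 2 and 3 and 0.26 and -0.14 on activin 1 and 3, with group means of 0.33 and 0.06. The difference of -0.27 was smaller than the gap between the 2 control arrays. On the same 4 arrays the difference for mmu-miR-322 minus mmu-miR-15b was -0.03. The mean of mmu-miR-322 and mmu-miR-503 minus the mean of mmu-miR-15a, mmu-miR-15b and mmu-miR-16 was -0.05 and 0.41 for control 2 and 3 and 0.31 and -0.10 for activin 1 and 3. That contrast was chosen after the data were seen. The X-linked members and the miR-15/16 members thus differed between groups by less than the spread between arrays, on either set of arrays.

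Within the X-linked pair, mmu-miR-322 minus mmu-miR-503 was 3.36 and 3.41 on control 2 and 3 and 3.54 and 3.90 on activin 1 and 3. Both Activin arrays lay above both control arrays, by a mean of 0.34, a value from 2 arrays per group that was not tested. With so few arrays such an order arises easily, and how often other miRNA pairs show it was not counted. mmu-miR-503 also rests on 1 detected probe, so no difference is read from this. mmu-miR-322 minus mmu-miR-16 was 3.36 and 4.07 for control 2 and 3 and 3.80 and 3.76 for activin 1 and 3, with group means 0.07 apart.

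**Figure D4:**
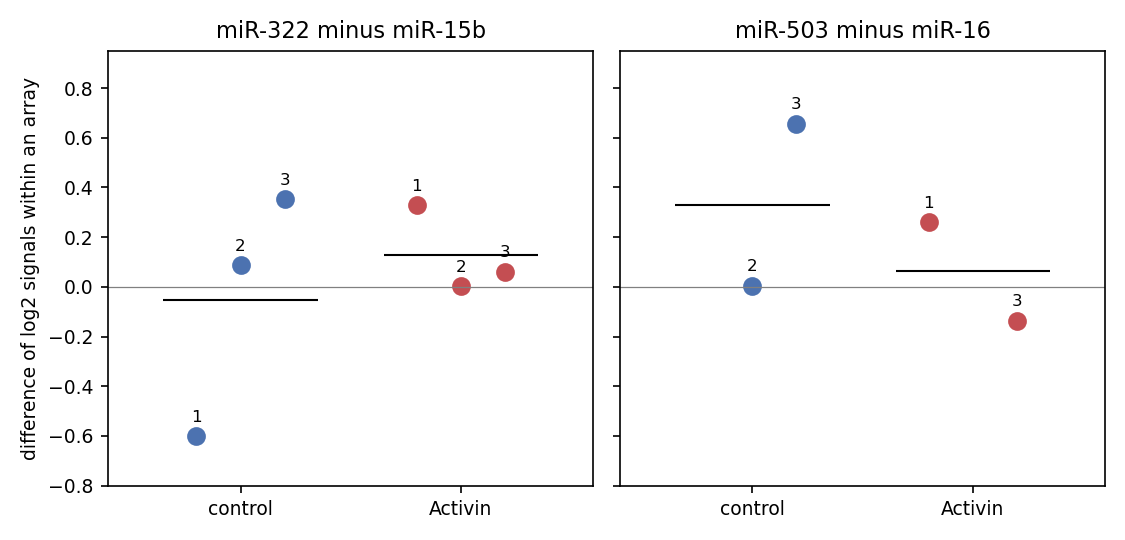
Difference of log2 scaled signals within an array (vertical axis) for mmu-miR-322 minus mmu-miR-15b on all 6 arrays (left) and mmu-miR-503 minus mmu-miR-16 on the 4 brighter arrays (right). Each point is 1 array with its replicate number, and bars are group means. On the left only control 1, at -0.60, stands away from the others, and on the right the groups overlap.

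On the dim arrays the members departed from the other arrays of their group by unequal amounts, also after scaling. Array brightness and a difference between the samples cannot be told apart here. On control 1 the scaled log2 signal of mmu-miR-322 was 1.76 below the mean of control 2 and 3, the lowest of all 79 tested miRNAs, where the median miRNA was 0.45 below. On activin 2, mmu-miR-322 was 0.79 below the mean of activin 1 and 3, the third lowest of 79, where the median miRNA was 0.07 above. mmu-miR-15b was 0.94 and 0.59 below on the same arrays, rank 7 and rank 6 from the lowest. mmu-miR-15a was 0.73 below on control 1, rank 18, and 0.08 above on activin 2, rank 42, where it was not detected. In this respect mmu-miR-322 and mmu-miR-15b went together, and mmu-miR-15a did not go with them on activin 2.

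Unscaled intensities were set against the scaling value for members detected on the dim array. On control 1 the scaling value was 0.478 of its mean on control 2 and 3, while the intensity was 0.142 of its mean there for mmu-miR-322, 0.253 for mmu-miR-15b and 0.293 for mmu-miR-15a. On activin 2 the scaling value was 0.315 of its mean on activin 1 and 3, and the intensity was 0.180 for mmu-miR-322 and 0.209 for mmu-miR-15b. The loss of signal was thus larger than that of the scaling value for each of these. mmu-miR-16 and mmu-miR-503 were not well above background on either dim array and are left out of this comparison. The part of array brightness in the group differences was not tested beyond leaving these arrays out.

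**Figure D5:**
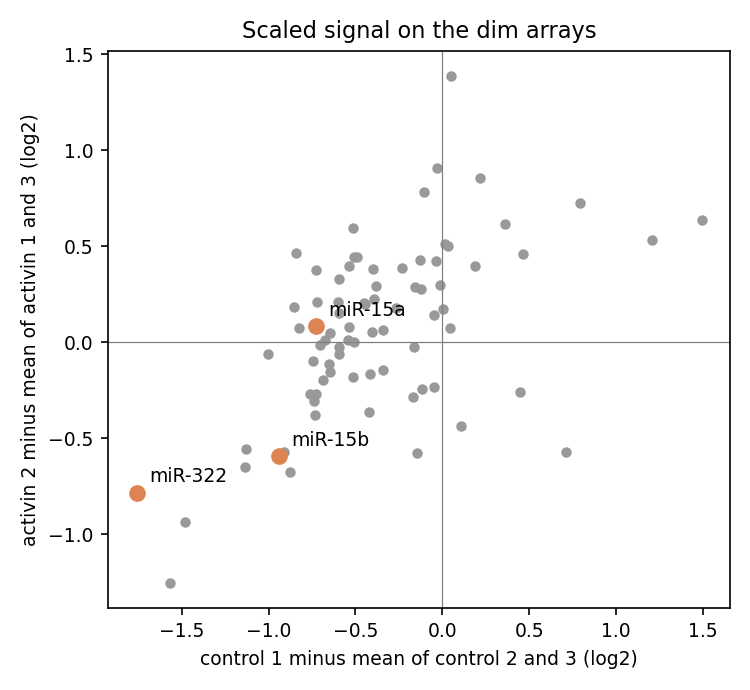
Scaled log2 signal on the dim array minus the mean of the other 2 arrays of its group, for control 1 (horizontal axis) and activin 2 (vertical axis), with 1 point for each of the 79 tested miRNAs. mmu-miR-322 lies at -1.76 and -0.79, mmu-miR-15b at -0.94 and -0.59 and mmu-miR-15a at -0.73 and 0.08.

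Position on the slide also differed between the groups. The 3 control arrays and activin 1 were in the first row, and activin 2 and 3 in the second. The first column held control 1 and activin 2, the 2 dim arrays, and the second column held control 2 and activin 3. Within the first column the Activin array was higher by 1.26 for mmu-miR-322, 0.66 for mmu-miR-15b and 0.86 for mmu-miR-15a. Within the second column it was higher by 0.51, 0.54 and 0.23, in the same order. Within the first row, activin 1 exceeded the control mean by 1.10, 0.71 and 0.33. With the column as a block, the limma difference was 0.89 (adjusted p = 0.233) for mmu-miR-322, 0.60 (adjusted p = 0.374) for mmu-miR-15b and 0.55 (adjusted p = 0.447) for mmu-miR-15a. No member passed the threshold in that fit. Control 3 and activin 1 were each alone in a column, so its difference came only from the first 2 columns. The direction was the same in these 2 columns and for activin 1 against the control mean. Against control 3 alone, activin 1 was lower for mmu-miR-15a and higher for mmu-miR-322 and mmu-miR-15b. The second row held no control array, so the row-block difference was only that of activin 1 from the control mean. The part of slide position in the group differences was not tested beyond these comparisons.

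Across the 6 arrays, mmu-miR-322 and mmu-miR-15b followed each other most closely of the 10 pairs of detected members, with a Pearson r of 0.987 over 6 arrays and 0.965 over the 4 brighter ones. The r was 0.921 for mmu-miR-16 with mmu-miR-503 and 0.847 for mmu-miR-322 with mmu-miR-503. For mmu-miR-15a with mmu-miR-16, neighbours on chromosome 14, r was 0.416, the lowest of the 10. The points share arrays, their brightness and, for the dimmer members, the floor, so these values are a description.

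Among tested miRNAs outside the family, those whose log2 values were most like mmu-miR-322 over the 6 arrays were miR-103 (r = 0.969, rho = 1), miR-130a (r = 0.967, rho = 0.886) and miR-92a (r = 0.958, rho = 0.886). Without the 2 arrays farthest from the median, their r lay between 0.893 and 0.906. Those most like mmu-miR-16 were miR-25 (r = 0.931, rho = 0.943), miR-103 (r = 0.887, rho = 0.943) and miR-19b (r = 0.862, rho = 0.829). Without the 2 farthest arrays, which for miR-19b were the dim ones, r was 0.916, 0.892 and 0.191, so the likeness to miR-19b rests on those arrays. miR-25 and miR-19b were also among the miRNAs that were lowest on the dim arrays against the other arrays of the group, at -1.57 and -1.48 on control 1 and at -1.25 and -0.94 on activin 2.

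miR-103 and miR-107 carry the letters of the family seed 1 base nearer to the 5′ end, so that they share part of their pairing with the family. They are printed with these letters in capitals, to be set against the family's sequences.

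mmu-miR-103: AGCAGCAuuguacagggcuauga

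mmu-miR-107: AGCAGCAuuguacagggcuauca

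miR-103 had intensities of 36.5, 148 and 134 for control and of 190, 34.6 and 140 for Activin, low on the dim arrays as the family members were. Its fitted difference was 0.19 (SE 0.30, limma adjusted p = 0.780). miR-107 was detected on the 3 control arrays and 2 Activin arrays, with a fitted difference of 0.20 (SE 0.29, limma adjusted p = 0.756). Neither passed the threshold.

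The X-linked cluster goes on beyond mmu-miR-322 and mmu-miR-503 with miR-351, miR-542 and the miR-450 genes. Of 8 other mature miRNAs of the cluster on the array, 1 was detected on any array, miR-542-5p, and the passenger strands of mmu-miR-322 and mmu-miR-503, miR-351, miR-542-3p and 3 miR-450 forms were not. miR-542-5p had intensities of 11.8, 26.5 and 21.7 for control and of 26.3, 11.9 and 26.5 for Activin and was detected on all of these but activin 2. Its fitted difference was 0.17 (SE 0.29, limma adjusted p = 0.811). The cluster was thus read mainly through mmu-miR-322 and mmu-miR-503. Of the passenger strands of the other members, 3 were on the array and none was detected.

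Other X-linked miRNAs, taken as a group of 19 on the array, included 5 that were detected and 4 that were tested. None of the 4 passed the threshold. The differences were 0.52 for miR-652 (limma adjusted p = 0.427), 0.32 for miR-361 (limma adjusted p = 0.614) and -0.03 for miR-20b (limma adjusted p = 0.956), and that of miR-188-5p was under 0.01 in size.

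Marker miRNAs of cell types were read beside these values. Of 12 ES cell miRNAs, 10 were detected on at least 1 array, including members of the miR-290 and miR-302 clusters. Their summed scaled signal ranged from 6.28 to 16.02 for control and from 5.95 to 7.70 for Activin, and was not tested. The highest signals of the list, miR-292-3p and miR-293, were 3.22 and 2.39 (log2) on the dim array control 1. They were 1.58 and 1.02 on control 2 and 1.89 and 1.35 on control 3. On activin 2, the other dim array, they were also the highest of their group, at 1.92 and 1.51. The upper ends of the sums thus rest largely on the dim arrays. Of the 6 ES cell miRNAs that were tested, 5 had fitted differences below 0 and 1 above, with a median of -0.40. The 5 below 0 were all of the miR-290 cluster, and the 1 above was of the miR-302 cluster. The one above 0, miR-302c, was the only call among all 79 tested miRNAs, higher with Activin by 1.23 (SE 0.30, limma adjusted p = 0.00597), and 18 of 23 alternative fits called no miRNA. Among the others, miR-292-3p had -0.74 (limma adjusted p = 0.216) and miR-291a-3p -0.67 (limma adjusted p = 0.263). In the miR-302 cluster, the untested miR-302a and miR-367 had group means that differed by 0.97 and 0.13. The untested miR-302b and miR-302d were each detected on 2 Activin arrays and on no control array. Their group means differed by only 0.02 and 0.10, and miR-302b was at the floor on activin 1 and 3. How often other miRNAs show such a split of detection was not counted, so no difference is read from it. Of 6 mesenchymal and smooth muscle miRNAs, 4 were detected, and miR-143 and miR-145 were not. Their sum was 1.77 to 2.50 for control and 2.69 to 2.91 for Activin, so these groups did not overlap. Taken singly, 14 of all 79 tested miRNAs (17.7%) had groups that did not overlap. The 4 detected mesenchymal and smooth muscle miRNAs were tested, and none passed the threshold (limma adjusted p between 0.427 and 0.754). The summed signal of the 4 striated muscle miRNAs, of which only miR-133b was detected, on 1 array, was 0.0401 to 0.0598 for control and 0.0795 to 0.0934 for Activin. That of the 4 liver and islet miRNAs, none of them detected, was 0.0106 to 0.0190 for control and 0.0246 to 0.0338 for Activin. These sums did not overlap either, and they come mostly from signals not above background. Of the endothelial markers, miR-126-5p was detected on no array, and miR-126-3p on 1 array of the control group and 2 of the Activin group. miR-126-3p was not tested. Its group means were -4.32 and -3.15 on the log2 scale, with control 1 at the floor and control 2 near it at -4.79. The gap between these means thus depends in part on the floor. The part of such cells in the higher fitted values of mmu-miR-322, mmu-miR-15b and mmu-miR-15a was not tested. In RNA from whole cultures, fewer cells of a type and less RNA per cell cannot be told apart. No blood marker was detected on any array, and of the neural and epithelial markers 1 of 3 and 3 of 5 were.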

How the data were processed

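The members and the miRNA lists were chosen with earlier results of these data known. RNA (100 ng per sample, per the labels) was labelled with Cy3. The authors deposited scanner output with spot intensity values on a linear scale, already background-subtracted with Agilent software, Feature Extraction 10.7.3.1 as the headers have it and 10.1.1 in the submitters' processing notes. The deposited series table held the same intensity values.

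Here, unflagged spots were averaged per probe and then per miRNA, divided by the array's 75th percentile of the 59 probes that all 6 arrays detected, raised to a floor of 0.0326 where lower, and converted to log2. The floor, -4.94 on the log2 scale, is percentile 1 of detected miRNAs, taken as its median over arrays. No spot was saturated. limma 3.58.1 in R 4.3.3 (lmFit, eBayes, two-sided) was fitted to 79 miRNAs, with Benjamini-Hochberg adjustment over the 79 and a threshold of 0.05. Its 194 prior degrees of freedom pooled the variances almost fully, with SEs between 0.293 and 0.310, so p-values reflect a shared spread. Values at the floor have no order. The number of arrays limits the precision.

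All 7 members are named, with the 3 tested miRNAs most like mmu-miR-16 and mmu-miR-322 and the measured members of the related lists. Replicate numbers of the labels were checked for pairing. Deviations from group means of same-numbered samples correlated at -0.64, -0.09 and 0.34. Those of the dim arrays, control 1 and activin 2, correlated at 0.55, and those of control 3 and activin 1 at 0.66. Those of control 2 with activin 1 and with activin 3, all brighter arrays, correlated at 0.16 and -0.02. The highest values thus came from pairs with different numbers, and this check cannot tell whether same-numbered samples were paired. The part of array brightness in these values was not tested. No pairing was used in the main fit. Alternatives covered scaling, background, probe summary, filter, floor, slide position, variance trend and left-out arrays. The other background correction used the median spot signal in place of the mean.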

Additional observations from a re-analysis of the deposited data

How the results depend on the processing

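No member passed the threshold in any of 23 alternatives. The difference of mmu-miR-322 stayed above 0 in 23 of 23 and that of mmu-miR-15b in 23 of 23. The other filters, the other floor, the series table values, the replicate block and the variance trend left both differences unchanged. These settings therefore say nothing on how stable the sign is. Leaving out 1 array at a time gave 0.03 (without control 1) to 1.13 (without control 3) for mmu-miR-322, 0.11 to 0.74 for mmu-miR-15b and 0.08 to 0.55 for mmu-miR-15a. Their limma adjusted p over the alternatives lay between 0.138 and 1, 0.139 and 0.997, and 0.203 and 0.997. The other 4 scalings and normexp gave 0.44 to 0.54, 0.27 to 0.50 and -0.17 to 0.25. mmu-miR-15a was above 0 in 21 of 22, which again include settings that left its difference unchanged. Normexp on the median signals, which also added an offset of 50 intensity units, reversed it to -0.17 (limma adjusted p = 0.944). Normexp also moved the untested differences of mmu-miR-16 and mmu-miR-503 to -0.55 and -0.50, and it moved the median of all tested miRNAs to -0.31. The cause was not tested.

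The contrast of mmu-miR-322 with mmu-miR-15b, 0.18, is a difference within an array, and 5 of its 18 alternatives leave it as it is by construction. It was above 0 in 10 of the 13 that change it. It ranged from -0.09 (without control 1) to 0.39 (without control 3) over left-out arrays. It was -0.03 without both dim arrays and -0.08 with 5 members on the 4 brighter arrays, which was chosen after seeing the data.

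With the replicate number as a replicate block, the limma adjusted p was 0.669 for mmu-miR-322, 0.735 for mmu-miR-15b and 0.751 for mmu-miR-15a, and 1 miRNA of 79 was called, as without the block. Over all tested miRNAs 1 was called, and 18 of the 23 alternatives called 0. Members were detected in 25 of 42 pairs of array and member, in 28 by the software call per miRNA and in 24 when all spots had to be well above background. Signal over background limits what can be said of mmu-miR-16 and mmu-miR-503 on the dim arrays and of mmu-miR-195 and mmu-miR-497 on all arrays.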
